A study of Mus musculus with 14 samples.

Results

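A set of 10 genes of the brain's endothelial cells, out of 23412 genes in the deposited count table, was followed through RNA and ribosome footprints of mouse cortex. The genes were listed by name from general knowledge of the cell type: the junction and adhesion genes Cldn5, Cdh5 and Pecam1, the growth factor receptors Flt1, Kdr and Tek, the transporters Slco1a4 and Abcb1a, and the Ly6 surface antigens Ly6c1 and Ly6a. The list was made with earlier results of these data known. All 10 genes were found once in the table and passed the filter on low counts in both assays. KO mice carried the genotype Fmr1X-Y; Rpl22flox/flox;CamKCre+ with Fmr1, which encodes FMRP, a protein that binds mRNA, knocked out. Controls carried Rpl22flox/flox;CamKCre+, so both genotypes shared the floxed Rpl22 allele and the Cre, whose CamK promoter is used to reach forebrain excitatory neurons and not endothelium. The series title places the study in translation elongation. RNA was measured in control mice 1, 3, 6 and 8 and in KO mice 2, 4, 5 and 7, and footprints in control mice 1, 3 and 9 and in KO mice 2, 4 and 10. No capture of tagged ribosomes is named in the protocols, and no age or treatment of the mice is given.

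Brain endothelial cells line the capillaries and form the blood-brain barrier. Claudins and cadherins seal the cells to each other, membrane pumps and carriers set what crosses them, and VEGF and angiopoietin receptors keep the vessel wall in place. In whole cortex these cells are a minority, and the RNA of the 10 genes comes mostly from them. Ribosome footprints are the mRNA pieces that ribosomes shield from nuclease, so their number reflects both how much mRNA of a gene there is and how many ribosomes sit on it.

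Levels are given in CPM, the reads of a gene set on a common library size after TMM scaling, which adjusts library totals so that most genes do not differ. The RNA libraries held from 8847547 to 11371851 counts, and the footprint libraries from 4124065 to 6033030. As a check of the labels, control mice had 83.0 ± 8.37 CPM of Fmr1 RNA and KO mice 21.7 ± 2.40 (SD, n = 4 each), so its RNA was reduced and not absent. Its footprints were at 114 ± 1.997 and 7.46 ± 1.43 CPM (SD, n = 3 each). Rpl22, floxed in both genotypes, was at 95.9 ± 6.36 and 80.6 ± 5.83 CPM in RNA (adjusted p = 0.0355, edgeR), a call lost in the exon columns (0.531), with close libraries summed (0.409), in mice 5 to 8 alone (0.356) and without control mouse 3 or 6 or KO mouse 2, 4 or 7 (0.0679 to 0.132). The excitatory neuron marker Slc17a7 was present in every RNA library, at 1380 to 1730 CPM. Among the RNA libraries, KO mice 2, 4 and 7 were close to each other. Their pairs gave a chi-square of counts, divided by its degrees of freedom, from 1.18 to 1.32, where sampling alone gives about 1, and control mice 1 and 3 gave 1.99. The other pairs within a genotype gave 4.03 to 11.8. Among the footprint libraries all 6 pairs within a genotype were as close, at 1.15 to 1.42, and pairs between genotypes gave 4.83 to 5.92, so the footprint calls rest on a narrow spread between libraries. The RNA libraries of mice 5, 6 and 8 thus stood apart from the others of their genotype, which touches all 10 genes.

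Promoter sequence is shown for 4 members whose lowest 3 RNA libraries were those of mice 5, 6 and 8. Cldn5 and Slco1a4 differed between genotypes in footprints in opposite directions. Flt1 is a receptor with a steady footprint level, and Abcb1a is an efflux pump. Each run is the 250 bases before the annotated start, on the gene's strand, from RefSeq (GRCm38.p6). These are chr16:18776597-18776846 (plus strand) for Cldn5, chr6:141856221-141856470 (minus) for Slco1a4, chr5:147726012-147726261 (minus) for Flt1 and chr5:8566841-8567090 (plus) for Abcb1a. Capitals mark AGGAAG or CGGAAG on either strand, the core letters bound by ETS factors, a family that includes the endothelial regulators Erg and Fli1.
Cldn5: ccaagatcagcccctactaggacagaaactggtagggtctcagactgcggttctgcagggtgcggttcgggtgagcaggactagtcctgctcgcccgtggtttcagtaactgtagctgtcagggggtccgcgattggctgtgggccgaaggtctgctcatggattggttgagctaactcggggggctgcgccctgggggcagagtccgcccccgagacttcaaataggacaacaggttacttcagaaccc
Slco1a4: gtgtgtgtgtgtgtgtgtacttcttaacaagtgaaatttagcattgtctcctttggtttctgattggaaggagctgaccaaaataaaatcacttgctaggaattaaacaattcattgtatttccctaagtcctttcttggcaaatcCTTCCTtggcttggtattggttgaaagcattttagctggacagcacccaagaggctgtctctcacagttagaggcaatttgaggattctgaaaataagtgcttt
Flt1: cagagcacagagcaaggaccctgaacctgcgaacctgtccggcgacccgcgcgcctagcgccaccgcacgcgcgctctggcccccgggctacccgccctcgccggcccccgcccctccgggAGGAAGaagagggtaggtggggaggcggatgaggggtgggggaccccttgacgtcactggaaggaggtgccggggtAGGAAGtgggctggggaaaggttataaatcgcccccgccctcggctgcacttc
Abcb1a: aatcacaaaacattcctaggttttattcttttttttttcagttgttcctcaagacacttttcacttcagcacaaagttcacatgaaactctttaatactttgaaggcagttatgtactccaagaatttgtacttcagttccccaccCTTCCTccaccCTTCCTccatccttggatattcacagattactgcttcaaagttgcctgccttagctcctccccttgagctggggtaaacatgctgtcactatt
The letters occurred at 2 places in Flt1, 129 and 53 bases before the start, at 2 in Abcb1a, 104 and 93 bases before it, at 1 in Slco1a4, 104 bases before it, and not in the window of Cldn5. Windows were matched for 7 of the 10 members, 8 windows in all, since Ly6c1 has 2. The letters occurred in 4 of the 8, those of Flt1, Abcb1a and Slco1a4 and 1 of Ly6c1, beside 39.2% of all 32851 windows of this length. The GC-box letters GGGCGG, on either strand, occurred in 3 of the 8, those of Kdr, Flt1 and Cldn5, and in 32.7% of all windows. Cdh5, Pecam1 and Ly6a are given by name only.

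In RNA, all 10 genes were lowest in the same 3 mice, and these mice came from both genotypes. Among the other mice the order differed between genes, with the highest library in mouse 3 for Cldn5 and in mouse 4 for Cdh5. The summed level of the 10 genes was 330, 326, 234 and 176 CPM in control mice 1, 3, 6 and 8 and 326, 316, 203 and 315 CPM in KO mice 2, 4, 5 and 7. The lowest 3 libraries of every one of the 10 genes were those of mice 5, 6 and 8, in the main RNA columns and in the exon columns alike. In the main columns this was the case for 660 of the 13507 genes tested (4.89%), and in the exon columns for 816 of 14566 (5.6%). These mice were singled out after the values were seen, so the counts are a description without a test.

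**Figure D1:**
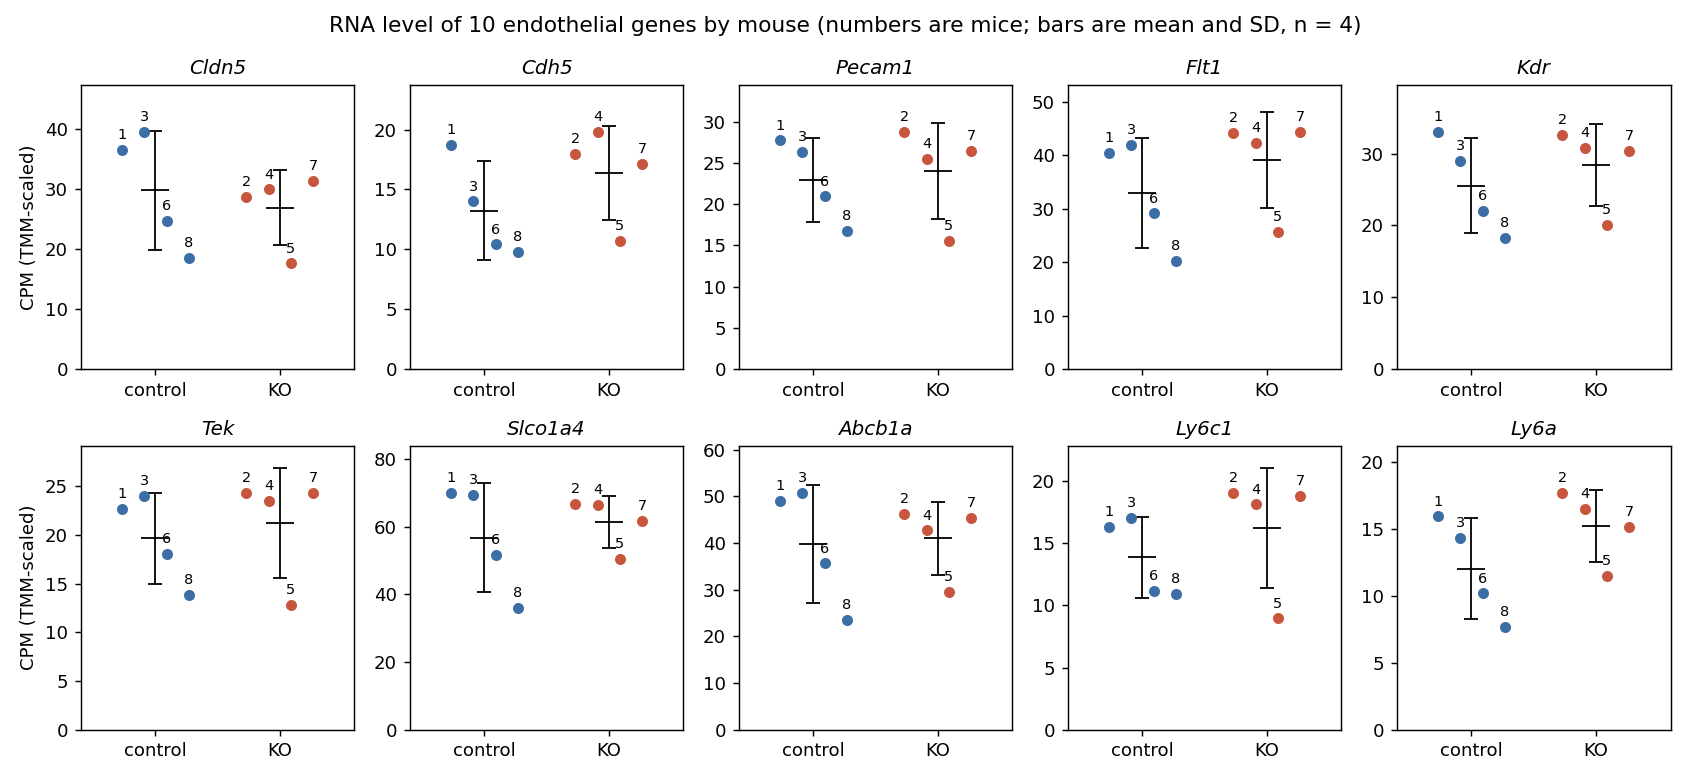
RNA level in CPM (vertical axis, from 0) of each of the 10 genes in control and KO mice. Points are mice, numbered as in the labels, and bars are the mean and SD (n = 4). In every panel mice 5, 6 and 8 are the lowest 3, and the genotypes overlap.

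Flt1, the VEGF receptor that acts largely as a ligand trap, showed the pattern at 40.4, 42.0, 29.1 and 20.2 CPM in control mice 1, 3, 6 and 8 and at 44.2, 42.4, 25.7 and 44.3 CPM in KO mice 2, 4, 5 and 7. Its KO mouse 5 stood alone, and the other 3 KO mice lay within 2 CPM of one another. Tek, the angiopoietin receptor, was at 22.7, 24.1, 18.0 and 13.8 CPM in controls and at 24.3, 23.5, 12.8 and 24.3 CPM in KO mice, in the same order of mice. Kdr, the main signalling receptor for VEGF, ran from 18.2 to 33.0 CPM in controls and from 20.002 to 32.6 CPM in KO mice. The levels of the receptors overlapped between genotypes.

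Slco1a4, an organic anion transporter of brain capillaries, was at 70.0, 69.4, 51.7 and 36.1 CPM in controls and at 66.7, 66.4, 50.5 and 61.8 CPM in KO mice. Abcb1a, the P-glycoprotein efflux pump, was at 49.1, 50.7, 35.6 and 23.6 CPM in controls and at 46.3, 42.7, 29.5 and 45.4 CPM in KO mice. For both, control mouse 8 was the lowest of all. Ly6c1, an antigen of capillary endothelium, was lowest in KO mouse 5 instead, at 8.95 CPM, with 18.1 to 19.0 CPM in the other KO mice and 10.9 to 17.0 CPM in controls. Ly6a, also called Sca-1, ran from 7.70 to 15.9 CPM in controls and from 11.5 to 17.7 CPM in KO mice.

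Of the junction genes, Cldn5, the main claudin of brain capillaries, was at 36.5, 39.4, 24.7 and 18.4 CPM in controls and at 28.6, 29.9, 17.6 and 31.4 CPM in KO mice. Cdh5, the VE-cadherin of adherens junctions, was at 18.7, 14.002, 10.4 and 9.75 CPM in controls and at 18.0, 19.8, 10.7 and 17.1 CPM in KO mice. Pecam1, an adhesion molecule at cell contacts, ran from 16.8 to 27.7 CPM in controls and from 15.6 to 28.7 CPM in KO mice. Cldn5 differs from the other junction genes in that control mice 1 and 3 were above every KO mouse. Slco1a4 shared this, at 70.0 and 69.4 CPM in these controls and at most 66.7 CPM in KO mice. So did Abcb1a, at 49.1 and 50.7 CPM in these controls and at most 46.3 CPM in KO mice.

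The highest RNA library of a gene was 1.81 times (Kdr) to 2.30 times (Ly6a) its lowest, with a median of 2.08 over the 10 genes and 1.36 over all genes tested. Within a genotype, the median SD of log2 CPM was 0.40 for the 10 genes and 0.13 for all genes. The fourth-lowest library was 1.16 times (Cldn5) to 1.46 times (Ly6c1) the third-lowest. In footprints, which came from mice 1 to 4, 9 and 10, the median ratio of highest to lowest library was 1.403 for the 10 genes and 1.34 for all genes, and the within-genotype SD was 0.12 for both. Footprints of mice 5, 6 and 8 were not among the 14 libraries. The wide spread of these genes therefore appeared in RNA, where those mice were measured, and the footprint spread was close to that of other genes.

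Labels of mice 5, 6, 7 and 8 share 1 title prefix, and mouse 7 was not low: its summed level was 315 CPM. What the prefix stands for is not stated in the labels. Fewer endothelial cells in the piece of cortex and less RNA of these genes per cell cannot be told apart in bulk samples.

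Other endothelial lists shared the pattern in part. Of 24 other endothelial surface and junction genes, 13 had their lowest 3 RNA libraries in mice 5, 6 and 8, among them Esam, Tie1, Icam2, Robo4, Vwf and Ocln. Of 14 endothelial transcription factors tested, Fli1 and Ets1 did. Of 20 other barrier transporters, 4 did: Slc2a1, the glucose carrier, Slc7a5, Slc38a5 and Slco1c1. Cav1 and Cav2, of 6 genes of caveolae, also did. It was 3 of 15 genes of the VEGF and angiopoietin pathway, 1 of 15 of the Wnt barrier pathway and 0 of 6 endothelial activation genes. In the exon columns the counts were 14 surface and junction genes, 6 transcription factors, 7 transporters, 2 genes of caveolae, 4 of the VEGF and angiopoietin pathway, 2 of the Wnt pathway and 0 of endothelial activation, beside 5.6% of all 14566 genes tested there. These genes were named after their values were seen, by the order of the mice alone.

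Lists of other cell types were read the same way. The order of mice held for 6 of 16 mural genes, among them Rgs5, Notch3 and Myh11, and for 4 of 10 basement membrane genes, Lama4, Lama5, Lamb2 and Hspg2. It held for 0 of 13 genes of perivascular fibroblasts and meninges, 0 of 10 astrocyte, 0 of 11 microglia, 0 of 12 excitatory, 0 of 8 inhibitory and 1 of 10 oligodendrocyte genes. In the exon columns it held for 5 mural, 5 basement membrane, 1 excitatory and 1 oligodendrocyte gene, and for 0 genes of the other lists in this paragraph. Summed astrocyte markers were at 4258, 4341 and 4851 CPM in mice 6, 8 and 5 and at 3879 to 4078 CPM in the others. Microglia markers were at 743, 768 and 736 CPM in mice 6, 8 and 5 and at 704 to 726 CPM in the others. Excitatory sums were at 3109 and 3153 CPM in control mice 6 and 8 against 2884 and 2890 CPM in control mice 1 and 3, and at 3824 CPM in KO mouse 5 against 3546 to 3577 CPM in the other KO mice. Inhibitory sums were at 864 and 867 CPM against 841 and 834 CPM in the same controls, and at 971 CPM in KO mouse 5 against 837 to 867 CPM. Oligodendrocyte sums were highest in mice 6 and 8, at 5787 and 5855 CPM, and lowest in mouse 5, at 4751 CPM, with 5008 to 5359 CPM in the others. Within each genotype, 4 of the 5 sums were thus higher in mice 5, 6 and 8, where the 10 endothelial genes were lower, and the oligodendrocyte sum was higher in mice 6 and 8 but lower in mouse 5. Their part in the pattern was not tested.

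Alas2, the haem synthesis enzyme of red blood cells, went the opposite way. Its RNA was at 72.4, 47.2 and 47.8 CPM in mice 6, 8 and 5, at 27.1 and 27.7 CPM in control mice 1 and 3, and at 17.3, 16.3 and 19.5 CPM in KO mice 2, 4 and 7. It was the 1 gene of the 5 red blood cell genes in the table that passed the filter. Hba-a1, Hba-a2, Hbb-b1 and Hbb-b2 were listed at 0 in every RNA and footprint library of the main columns, so those genes give no reading of blood in the tissue. The 3 mice with the lowest endothelial RNA were the 3 with the most Alas2 RNA, and the part of blood in the pattern was not tested.

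**Figure D2:**
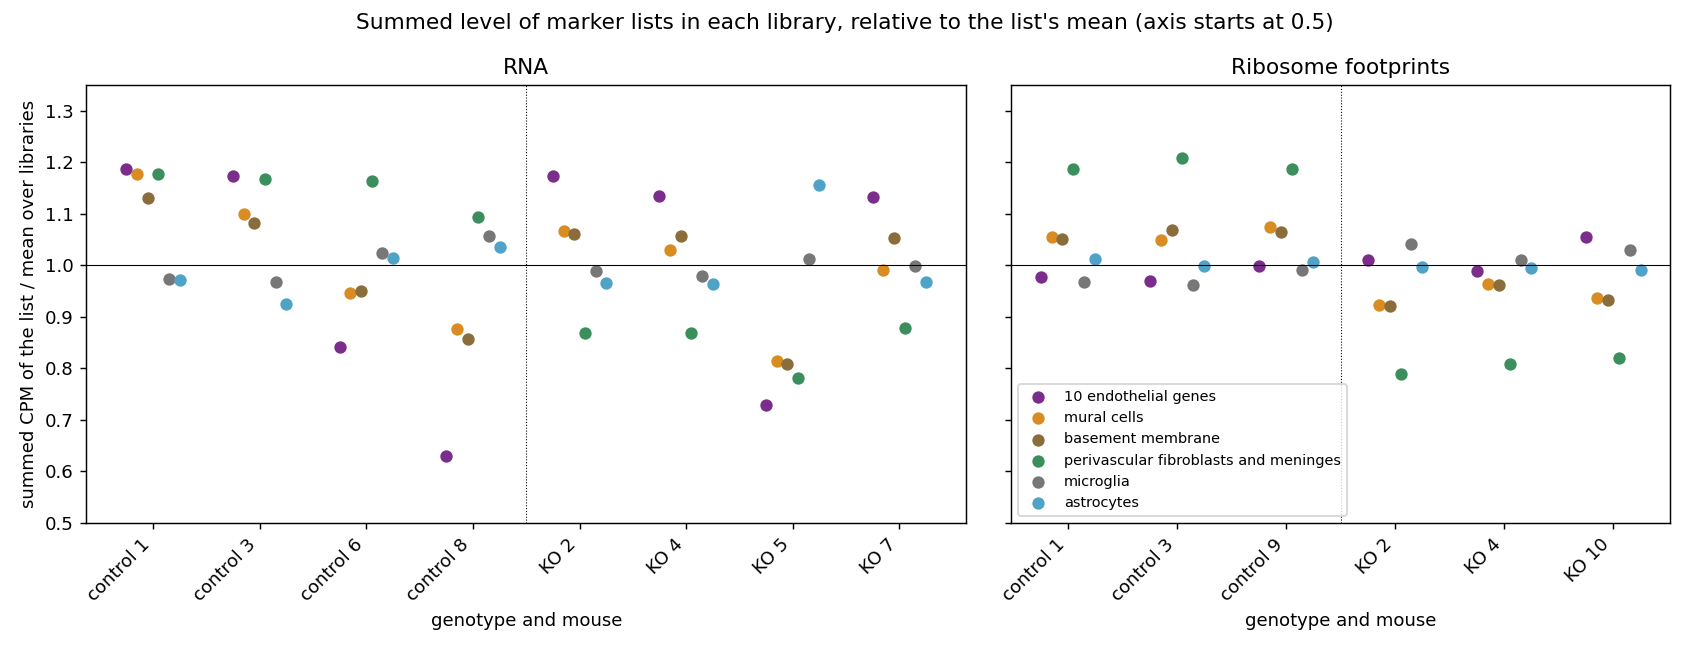
Summed CPM of marker lists in each library, divided by the list's mean over the libraries of the assay (vertical axis from 0.5), for RNA (left) and footprints (right). The 10 endothelial genes are low in RNA of mice 6, 8 and 5, mural and basement membrane genes lie lower there as well, and fibroblast genes separate by genotype.

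Among the genes whose RNA profile was most like that of the 10, by root-mean-square difference of centred log2 CPM over the 8 RNA libraries, were Hspg2 at 0.05, Pltp at 0.07, Flna at 0.08 and Itm2a at 0.08. The median of 13442 genes compared was 0.37, and the members themselves were at 0.05 (Kdr) to 0.16 (Cldn5) from their own mean. Hspg2 encodes perlecan, a proteoglycan of vessel basement membranes, Pltp a phospholipid transfer protein, and Flna a filamin of the cytoskeleton. Likeness here is of 1 profile over 8 libraries, and the rule chose these genes by it.

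Between genotypes, the RNA of 0 of the 10 genes differed past the threshold of adjusted p under 0.05 (edgeR quasi-likelihood test, adjusted over all genes), where 7.41% of all 13507 genes did. At an unadjusted p under 0.05 it was also 0 of 10, beside 23.3% of all genes, and DESeq2 called 0. In 9 of the 10 the KO mean was higher, with a median log2 fold change of 0.14 (all genes -0.001253). Without control mouse 8, where the 10 genes had their lowest sum, the KO mean was higher in 5 of 10 and the median was 0.01, and leaving out each other mouse gave 7 to 10 genes higher and medians from 0.08 (without KO mouse 2) to 0.30 (without KO mouse 5). The largest estimates were Ly6a at 0.35 ± 0.19 (SE, adjusted p = 0.294), Cdh5 at 0.32 ± 0.20 (adjusted p = 0.367) and Flt1 at 0.26 ± 0.20 (adjusted p = 0.48). Cldn5 was the 1 gene with a lower KO mean, at -0.14 ± 0.21 (adjusted p = 0.742). Standard errors of 0.16 to 0.21 were as large as most of the differences, and libraries of the genotypes overlapped for 10 of 10 genes, while 15.1% of all genes did not overlap.

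Without the RNA libraries of mice 5, 6 and 8, Cldn5 was called, at -0.34 with an adjusted p of 0.00074. Cldn5 was then the 1 of the 10 genes called, where 31.2% of all genes were called among the close libraries that remained. With mice 1 to 4 alone, Cldn5 was again the 1 gene called, at -0.37 (adjusted p = 0.00335), beside 24.1% of all genes. Mice 5 to 8 alone gave 0.20 (adjusted p = 0.747). The first of these choices was made after the levels were seen.

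In footprints 3 of the 10 genes changed. Cldn5 footprints fell in KO mice, those of Slco1a4 and Ly6c1 rose, and those of the other 7 genes, the VEGF and angiopoietin receptors among them, did not pass the test. Of all 12158 genes 25.5% were called, so the share called among the 10 is near the background. Of the 3 genes, 2 were higher in KO mice (11.9% of all genes) and 1 was lower (13.6%). The summed level of the 10 genes was 324, 322 and 331 CPM in control mice 1, 3 and 9 and 335, 328 and 350 CPM in KO mice 2, 4 and 10.

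Cldn5 footprints were at 62.0, 61.0 and 68.4 CPM in control mice 1, 3 and 9 and at 45.2, 51.2 and 49.1 CPM in KO mice 2, 4 and 10. Every KO library was below every control. The means were 63.8 ± 4.001 and 48.5 ± 3.05 CPM (SD, n = 3 each). The log2 difference was -0.40 ± 0.08 (SE), with an adjusted p of 4.08e-05 in edgeR.

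Slco1a4 footprints were at 40.4, 43.0 and 43.0 CPM in controls and at 49.9, 51.2 and 60.5 CPM in KO mice, without overlap. The log2 difference was 0.35 ± 0.09 (SE), with an adjusted p of 0.000778 in edgeR. Ly6c1 footprints were at 8.28, 8.33 and 9.95 CPM in controls and at 14.7, 12.3 and 13.02 CPM in KO mice, again without overlap. Its change was 0.58 ± 0.17 (SE, adjusted p = 0.00713, edgeR). This gene had the fewest footprints of the 10, with 35 reads in its lowest library (95% exact Poisson interval 24.4 to 48.7, counting error only). Its call was lost with DESeq2 (adjusted p = 0.0596) and without KO mouse 2 (adjusted p = 0.0502, edgeR).

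Genotypes did not overlap for these 3 genes, beside 37.3% of all genes. On plain library sizes Pecam1 and Tek did not overlap either, both higher in KO mice, which made 5 of 10 beside 39.2% of all genes. In one fit over all 14 libraries, where the wider RNA spread is shared, 0 of the 10 genes were called in footprints, beside 13.9% of all genes. Cldn5 then had an adjusted p of 0.208, Slco1a4 of 0.241 and Ly6c1 of 0.181, at nearly the same fold changes.

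**Figure D3:**
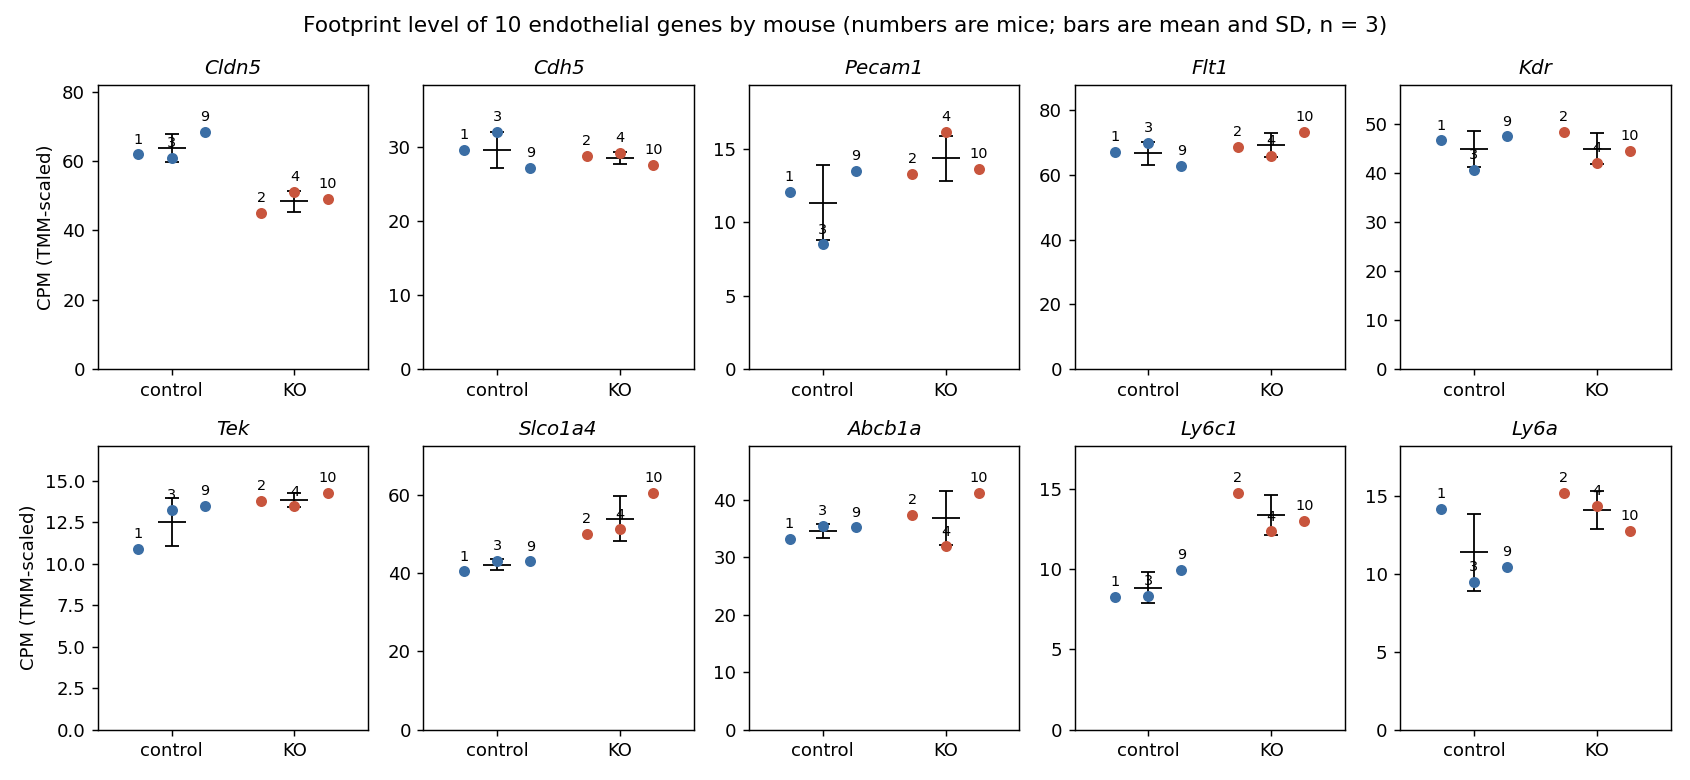
Footprint level in CPM (vertical axis, from 0) of each of the 10 genes in 3 control and 3 KO mice. Points are mice, numbered as in the labels, and bars are the mean and SD (n = 3). Cldn5 is lower in every KO mouse, and Slco1a4 and Ly6c1 are higher in every KO mouse.

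Pecam1 and Ly6a passed an unadjusted p under 0.05 but not the threshold. Pecam1 footprints were at 12.1, 8.50 and 13.5 CPM in controls and at 13.3, 16.2 and 13.6 CPM in KO mice, a difference of 0.35 ± 0.17 on the log2 scale (adjusted p = 0.114, edgeR). Ly6a footprints were at 14.2, 9.52 and 10.5 CPM in controls and at 15.2, 14.4 and 12.8 CPM in KO mice, 0.34 ± 0.17 (adjusted p = 0.134, edgeR). Both overlapped between genotypes with TMM scaling, and both had low counts, from 50 to 76 reads in a library. Ly6a was called without control mouse 1 (adjusted p = 0.0406, edgeR) and Pecam1 without control mouse 9 (adjusted p = 0.0292, edgeR). An unadjusted p under 0.05 was reached by 5 of the 10 genes and by 35.4% of all genes.

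The remaining 5 genes had footprint differences from -0.06 to 0.13 on the log2 scale. Flt1 was at 66.7 ± 3.60 CPM in the 3 controls and at 69.3 ± 3.68 CPM in the 3 KO mice (SD), Kdr at 44.9 ± 3.71 and 44.9 ± 3.17 CPM, and Cdh5 at 29.6 ± 2.39 and 28.5 ± 0.88 CPM. Tek was at 12.5 ± 1.45 and 13.8 ± 0.41 CPM, and Abcb1a at 34.5 ± 1.24 and 36.8 ± 4.66 CPM. With SEs of 0.07 for Flt1 and 0.09 for Kdr on the log2 scale, these receptors were measured about as finely as Cldn5 and Slco1a4.

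**Figure D4:**
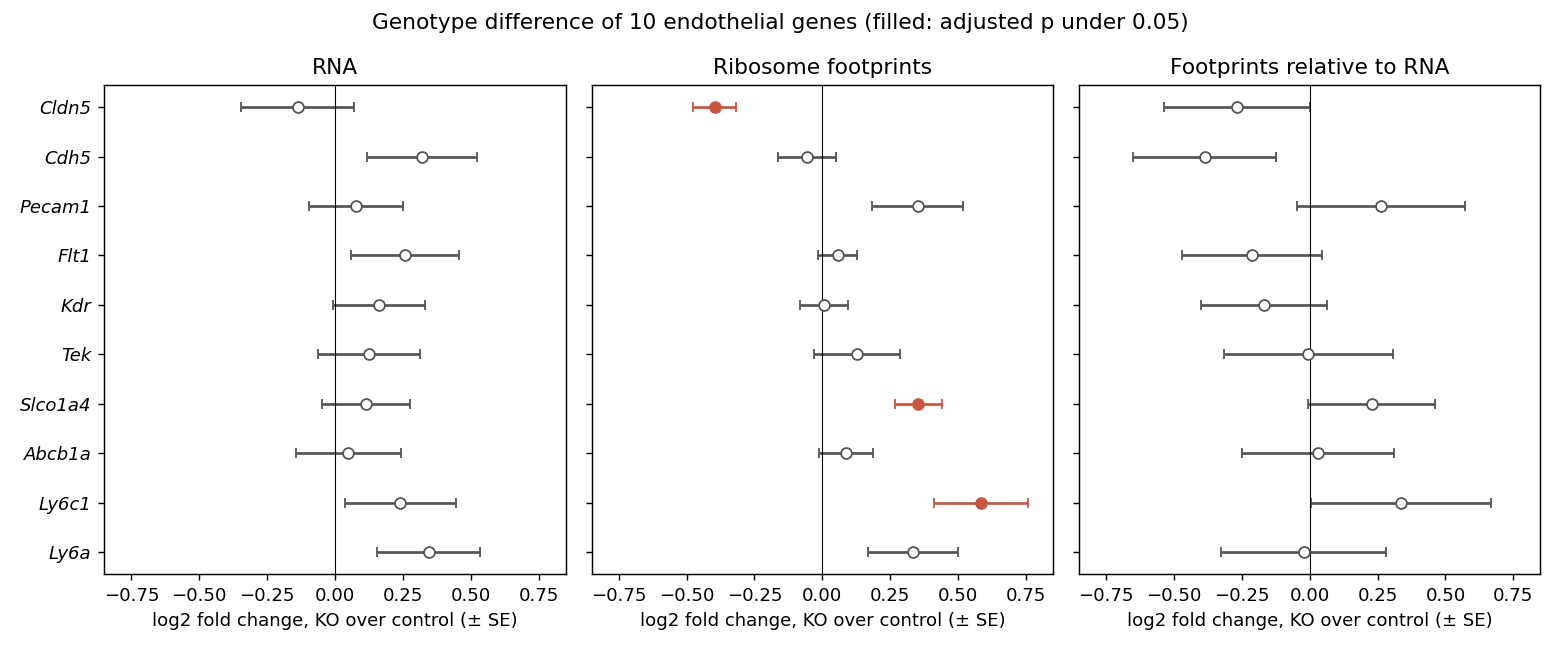
Log2 fold change of KO over control (horizontal axis, ± SE) for the 10 genes in RNA, in footprints and in footprints relative to RNA. Filled points passed an adjusted p of 0.05: Cldn5, Slco1a4 and Ly6c1 in footprints, and none elsewhere.

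Taking each gene against the other 9 removes what the endothelial genes share within a library. Measured so in RNA, Cldn5 was 0.33, 0.50, 0.29 and 0.22 log2 units above the mean of the other 9 in control mice 1, 3, 6 and 8. In KO mice 2, 4, 5 and 7 it was at -0.06, 0.06, -0.01 and 0.14. All KO mice lay below all controls, mice 5, 6 and 8 included, with group means of 0.33 ± 0.12 and 0.03 ± 0.09 (SD, n = 4). In the exon columns the values were 0.80 to 0.91 in controls and 0.39 to 0.67 in KO mice. Footprints of Cldn5 were at 1.39, 1.44 and 1.5045 in controls and at 0.73, 0.97 and 0.85 in KO mice.

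Cldn5 was the 1 gene of the 10 whose genotypes did not overlap on this scale in RNA. In the exon columns Flt1 did not overlap either, with means of 0.21 in controls and 0.42 in KO mice. Most genes outside the 10 do not share the swing of mice 5, 6 and 8, so their share without overlap on this scale, 1.03% in RNA, is no like measure. In footprints the 3 called genes did not overlap on this scale, as on the plain one, and 41.2% of other genes did not. The scale was chosen after the levels were seen, the values are a description without a test, and a ratio within a library shows unequal change and not which gene moved.

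Footprints relative to RNA, tested as the interaction of genotype and assay over all 14 libraries, differed for 0 of the 10 genes, beside 7.81% of all 12145 genes (edgeR quasi-likelihood test). At an unadjusted p under 0.05 it was 0 of 10 and 23.1% of all genes. DESeq2 called 0 of the 8 members to which it gave an adjusted p, and gave none to Ly6c1 and Ly6a. Cldn5 was at -0.27 ± 0.27 (SE, adjusted p = 0.6), Cdh5 at -0.39 ± 0.26 (adjusted p = 0.411), and Ly6c1 at 0.33 ± 0.33. The SEs of 0.23 to 0.33 are such that changes of the size seen in the Cldn5 and Slco1a4 footprints lie within 2 SEs of this comparison. Without the RNA of mice 5, 6 and 8, Slco1a4 was the 1 gene called, at 0.43 (adjusted p = 0.000758), beside 20.9% of all genes, and Cldn5 was at -0.07 (adjusted p = 0.7).

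Mice 1 to 4 were measured in both assays, and the footprint level over the RNA level within them set the 10 genes apart from each other. The ratio was 1.63 for Cldn5, 1.71 for Cdh5, 1.61 for Flt1 and 1.42 for Kdr (geometric means of 4 mice), which placed them between the 78.4 and 87.8 percentile of 12145 genes. It was 0.45 for Pecam1 and 0.54 for Tek, at the 15.2 and 21.8 percentile. Slco1a4 at 0.67, Abcb1a at 0.73, Ly6c1 at 0.60 and Ly6a at 0.82 lay below the median of all genes, 0.91.

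The genes thus fell on either side of that median, with Flt1 and Kdr above it and Tek, the other receptor of the list, below it. Each gene kept its side in all 4 mice. Cldn5 had 1.70 and 1.55 in control mice 1 and 3 and 1.58 and 1.71 in KO mice 2 and 4, which overlap. Slco1a4 had 0.58 and 0.62 in controls and 0.75 and 0.77 in KO mice, and Ly6c1 had 0.51 and 0.49 in controls and 0.77 and 0.68 in KO mice, without overlap. Abcb1a, Pecam1 and Tek were also higher in both KO mice, and Flt1 was lower in both, at 1.66 and 1.67 in controls and 1.55 and 1.56 in KO mice. In all, 6 of the 10 genes did not overlap in these 2 against 2 mice, beside 53.6% of all genes, a share near the background. These ratios are a description of 4 mice. Each assay was scaled to its own total, so a ratio of 1 has no absolute meaning.

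**Figure D5:**
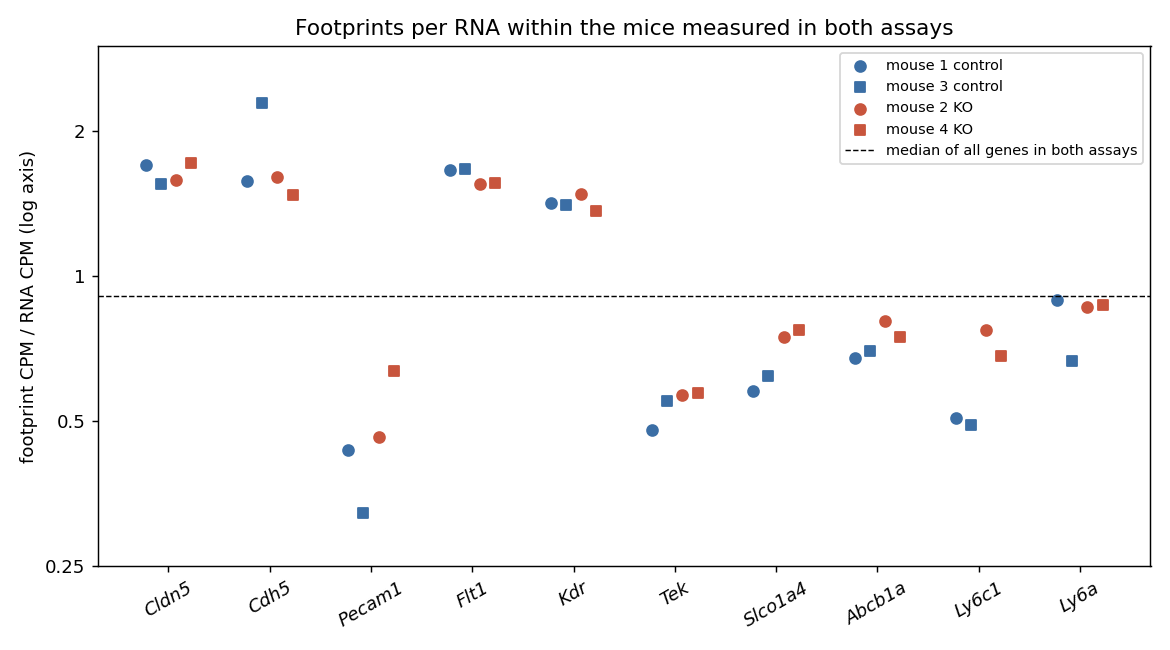
Footprint CPM over RNA CPM (vertical log axis) of the 10 genes in control mice 1 and 3 and KO mice 2 and 4, which were measured in both assays. The dashed line is the median of all genes, 0.91. Cldn5, Cdh5, Flt1 and Kdr lie above it in every mouse, and the other 6 genes lie below it.

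Part of the reads of near-copies can be lost or shared in counting. Ly6c2, the near-copy of Ly6c1, had 0 reads in every RNA and footprint library of the main columns, and how reads shared by the pair were counted is not given in the sources used here. Abcb1b, the relative of Abcb1a, had 46 to 73 RNA reads and 5 to 12 footprint reads, beside 242 to 490 and 140 to 208 for Abcb1a. Slco1a5 had at most 3 reads and Slco1a6 at most 2 in a library. The main RNA columns held 48.1% of the exon-column reads of Cldn5, 52.7% of those of Ly6c1 and 56.6% of those of Slco1a4, and 84.8% for Abcb1a, beside a median of 65.6% over all genes. What region the main columns count is not given in the sources used here. The part of these shares and of near-copies in the ratios of footprint level to RNA level was not tested.

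Among 24 other endothelial surface and junction genes, 2 rose in RNA of KO mice, 0 fell, and the median log2 fold change was 0.15. Eng, a co-receptor for TGF-beta ligands, was at 10.6 to 16.7 CPM in controls against 13.95 to 26.3 CPM in KO mice, 0.74 ± 0.17 (adjusted p = 0.0204, edgeR). Cd34, a sialomucin of capillaries, was at 68.5 to 73.8 CPM and 72.0 to 94.4 CPM, 0.29 ± 0.08 (adjusted p = 0.0361, edgeR). In footprints 2 of 23 rose and 2 fell. Cd34 rose by 0.40 ± 0.07 (adjusted p = 1.02e-06, edgeR) and Jam2, a junctional adhesion molecule, by 0.37 ± 0.09 (adjusted p = 0.000613, edgeR). Tjp1, the ZO-1 scaffold of tight junctions, and Cdh13 fell. Tjp1 also fell relative to RNA, at -0.42 ± 0.10 (adjusted p = 0.00875, edgeR), but it is made in many cell types. The RNA calls rest on few mice. Eng lost its call without control mouse 6 or KO mouse 2, 4 or 7 (adjusted p = 0.0656, 0.073, 0.0793 and 0.0665) and in the exon columns (0.0626). Cd34 lost it with the title prefix as a term (adjusted p = 0.0515), without control mouse 1, 3 or 6 (adjusted p = 0.0941, 0.0838 and 0.0754) or KO mouse 2, 4 or 7 (0.136, 0.116 and 0.121), and Tjp1 relative to RNA without mouse 4 (0.0662, all edgeR). With the close RNA libraries summed, and with mice 5 to 8 alone, the RNA calls of Eng, Cd34, Klf2, Slc7a1, Angpt1, Nrp2, Fzd4, Stat2, Col3a1 and Sparc were lost, at adjusted p from 0.147 to 0.546 and from 0.145 to 0.655 (edgeR).

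Of 14 endothelial transcription factors, Klf2, which responds to blood flow, rose in RNA by 1.24 ± 0.27 (adjusted p = 0.0148, edgeR) and in footprints by 0.47 ± 0.16 (adjusted p = 0.0236, edgeR). Its RNA was at 1.33 to 2.80 CPM in controls against 3.02 to 7.23 CPM in KO mice. Epas1, the hypoxia factor HIF-2 alpha, rose in footprints by 0.15 ± 0.05 (adjusted p = 0.0106, edgeR), and 0 fell in either assay. The RNA call of Klf2 was lost without control mouse 6 or KO mouse 2 or 4 (adjusted p = 0.0537, 0.0562 and 0.0506, edgeR). Its footprint call was lost without control mouse 3 or 9 or KO mouse 4 (0.0931, 0.0513 and 0.193), and that of Epas1 without KO mouse 2 or 4 (0.0624 and 0.0967) (edgeR). Both footprint calls were also lost with DESeq2 (adjusted p = 0.128 for Klf2 and 0.0756 for Epas1) and in one fit over all libraries (0.173 and 0.376, edgeR). Klf2 is also induced in other cells of the brain. Of 12 immediate early genes, which neuronal activity induces, 11 rose in RNA and 12 in footprints. Their summed RNA was at 312, 313, 308 and 626 CPM in control mice 1, 3, 6 and 8 and at 1251, 1239, 551 and 1210 CPM in KO mice 2, 4, 5 and 7, so KO mouse 5 lay below control mouse 8. Their part in the Klf2 change was not tested.

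Of 20 other barrier transporters, 1 rose in RNA: Slc7a1, a carrier of cationic amino acids, by 0.34 ± 0.07 (adjusted p = 0.0123, edgeR). In footprints 2 rose and 3 fell. Slc40a1, the iron exporter ferroportin, rose by 0.54 ± 0.17 (adjusted p = 0.0134, edgeR), and Tfrc, the transferrin receptor, was lower at -0.26 ± 0.05 (adjusted p = 7.25e-06, edgeR). Slc7a1 was lower relative to RNA, at -0.44 ± 0.12 (adjusted p = 0.0322, edgeR). Without KO mouse 2 or 4 the RNA call of Slc7a1 was lost (adjusted p = 0.0505 and 0.0561), and relative to RNA it was lost without mouse 1, 2, 3, 4 or 6 (0.106, 0.17, 0.0953, 0.14 and 0.0508, edgeR), on plain library sizes (0.071) and with the close libraries summed (0.108). The Slc40a1 call was lost without control mouse 9 or KO mouse 2 (0.115 and 0.0755, edgeR) and with DESeq2 (adjusted p = 0.0914). In one fit over all libraries the calls of Slc40a1 and Tfrc were both lost (adjusted p = 0.118 and 0.105, edgeR). Neurons and glia also express several of these carriers.

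In the list of the VEGF and angiopoietin pathway, which holds ligands and co-receptors of Flt1, Kdr and Tek and also Notch and apelin genes of vessel growth, 2 of 15 genes fell in RNA and 0 rose. Angpt1, the ligand of the Tek receptor, was at 13.2 to 15.9 CPM in controls against 7.72 to 11.4 CPM in KO mice, -0.59 ± 0.12 (adjusted p = 0.0123, edgeR). Nrp2, a neuropilin also found on neurons, was at 44.6 to 51.8 CPM and 28.6 to 39.7 CPM, -0.55 ± 0.10 (adjusted p = 0.00463, edgeR). In footprints 3 of 14 rose and 3 fell, with Hes1, a transcription factor induced by Notch in many cell types, at 0.65 ± 0.19 (adjusted p = 0.00498, edgeR) and Nrp2 at -0.77 ± 0.09 (adjusted p = 1.2e-11, edgeR). Leaving out any single mouse ended none of these named calls. The RNA calls of Angpt1 and Nrp2 were lost with the close libraries summed (adjusted p = 0.229 and 0.181) and in mice 5 to 8 alone (0.291 and 0.152), and the footprint call of Hes1 in one fit over all libraries (0.0656, edgeR). The receptors themselves passed no threshold in either assay.

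Of 15 genes of the Wnt pathway that maintains the barrier, Fzd4, the endothelial receptor for norrin, rose in RNA by 0.63 ± 0.17 (adjusted p = 0.0381, edgeR). Its call was lost without control mouse 1 or 6 or KO mouse 2, 4 or 7 (adjusted p = 0.0989, 0.111, 0.0887, 0.134 and 0.121, edgeR). Ndp, which encodes norrin, rose in footprints, from 2.49 to 4.02 CPM in controls to 5.94 to 7.56 CPM in KO mice, 1.12 ± 0.28 (adjusted p = 0.000855, edgeR). Ctnnb1, beta-catenin of all cells, fell in footprints at -0.23 ± 0.02 (adjusted p = 4.66e-14, edgeR). It also fell relative to RNA, at -0.26 ± 0.06 (adjusted p = 0.0131, and 0.0534 and 0.0615 without mouse 2 or 4, edgeR). Of 6 caveolae genes, 0 changed in RNA and 1, Ptrf, fell in footprints, a call lost without control mouse 3 or KO mouse 4 (adjusted p = 0.0829 and 0.0536, edgeR), with DESeq2 (0.0735) and in one fit over all libraries (0.0927, edgeR). Endothelial activation genes were called in neither assay, 0 of 6 in RNA and 0 of 4 in footprints, and of 18 interferon-induced genes tested in RNA 1 rose, Stat2, at 0.60 ± 0.12 (adjusted p = 0.00774, edgeR). Relative to RNA Stat2 was lower, at -0.65 ± 0.15 (adjusted p = 0.0111, and 0.0705, 0.0546 and 0.0595 without mouse 2, 3 or 4, edgeR).

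Ly6e and Ly6h, Ly6 relatives that are widely expressed in brain, moved in opposite directions in footprints. Ly6e was at 176 to 179 CPM in controls against 193 to 199 CPM in KO mice, 0.15 ± 0.04 (adjusted p = 0.00575, edgeR). Ly6h was at 218 to 236 CPM and 191 to 200 CPM, -0.20 ± 0.04 (adjusted p = 6.89e-05, edgeR). Both calls were lost in one fit over all libraries (adjusted p = 0.223 for Ly6e and 0.13 for Ly6h, edgeR), and that of Ly6e with DESeq2 (0.0508).

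Most genes of the perivascular fibroblasts and meninges, which lie around the larger vessels and over the cortex, were lower in KO mice. In RNA 8 of the 13 genes of that list fell and in footprints 11 of 13, with 0 higher in either. Their summed level was 974 to 1051 CPM in controls against 698 to 784 CPM in KO mice in RNA, and 1896 to 1931 and 1261 to 1309 CPM in footprints. Dcn RNA was at 31.2 to 33.4 CPM in controls against 17.6 to 21.1 CPM in KO mice, -0.76 ± 0.08 (adjusted p = 0.000288, edgeR). Col3a1 RNA was at -0.65 ± 0.17 (adjusted p = 0.0355, edgeR), a call lost with DESeq2 (0.0813) and without any single mouse but control mouse 8 (0.0637 to 0.103, edgeR). Col1a1 footprints were at -1.18 ± 0.05 and those of Col1a2 at -1.07 ± 0.05 on the log2 scale (adjusted p = 2.33e-35 and 8.91e-33, edgeR). Relative to RNA they were at -0.60 ± 0.11 and -0.56 ± 0.16 (adjusted p = 0.00133 and 0.035, edgeR). That call of Col1a2 was lost on plain library sizes (0.0625), with close libraries summed (0.053) and without mouse 2, 3, 4, 6, 7, 9 or 10 (0.0511 to 0.181, edgeR). How much meninges stayed on the dissected cortex is not given in the labels, and its part in the footprint differences of Cldn5, Slco1a4 and Ly6c1 was not tested.

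Of 10 basement membrane genes 7 fell in footprints and 1, Sparc, rose, while in RNA 0 fell and Sparc rose. Sparc lost its RNA call without control mouse 1, 3 or 6 (adjusted p = 0.0742, 0.0905 and 0.0945) or KO mouse 2, 4 or 7 (0.122, 0.112 and 0.119, edgeR), and in the exon columns (0.202). Col4a1 and Col4a2, the collagen IV chains, were at -0.82 ± 0.06 and -0.84 ± 0.07 in footprints (adjusted p = 5.64e-22 and 3.02e-20, edgeR). Hspg2, whose RNA profile was the most like that of the 10 genes, had RNA at 22.9 to 40.5 CPM in controls against 25.9 to 42.5 CPM in KO mice. Its footprints were at 56.4 to 61.1 and 30.7 to 38.4 CPM, and relative to RNA it was at -1.03 ± 0.25 (adjusted p = 0.0119, edgeR, and 0.0914 without mouse 2). Of the mural genes 4 of 15 fell in footprints, among them Cd248 at -0.69 ± 0.19 (adjusted p = 0.0036, edgeR) and Tagln at -0.54 ± 0.18 (adjusted p = 0.0167, edgeR), and Rgs5 rose. The Tagln call was lost without KO mouse 4 (adjusted p = 0.129, edgeR) and with DESeq2 (0.105). In one fit over all libraries the calls of Cd248 and Tagln were lost (adjusted p = 0.0521 and 0.0577, edgeR). At an adjusted p under 0.05, 0 of 16 mural genes were called in RNA. Cspg4, a pericyte and oligodendrocyte precursor proteoglycan, fell relative to RNA at -0.37 ± 0.09 (adjusted p = 0.018, edgeR), a call lost with close libraries summed (0.0501) and without mouse 2, 3, 4 or 9 (0.101, 0.0679, 0.0731 and 0.0633, edgeR).

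Lists of neurons and glia were called in part. In RNA 3 of 12 excitatory genes rose and 0 fell, 1 of 8 inhibitory genes rose and 1 fell, and 2 of 10 astrocyte, 1 of 10 oligodendrocyte and 1 of 11 microglia genes fell with 0 higher. In footprints 4 excitatory genes rose and 3 fell, 3 inhibitory rose and 1 fell, 1 astrocyte rose and 3 fell, 4 oligodendrocyte rose and 3 fell, and 3 microglia rose and 1 fell. Their part in the values of the 10 genes was not tested.

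Counts of calls on lists are to be read against 7.41% of all genes in RNA and 25.5% in footprints. Calls split as 46.7% higher and the rest lower in footprints with TMM scaling and as 66.3% higher on plain library sizes. For footprints relative to RNA the share higher was 43.5% and 68.2%. The directions of the 3 called members were the same under both scalings.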

How the data were processed

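RNA was counted in 8 libraries and ribosome footprints in 6, and genotype and mouse number come from the labels. The authors deposited whole-number counts per gene for 23412 genes, without normalization. The submitters' processing notes name Bowtie2, STAR 2.5, featureCounts, Subread 1.4.6 and the builds mm9 and mm10, with no role or order. Per the labels' protocols, ribosomal RNA was removed before strand-specific RNA library preparation, and footprints came from monosomes on a sucrose gradient. The RNA columns whose headers lack the word exon hold values for the genes that the footprint columns hold and were used here, and the exon columns served as an alternative.

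Genes were kept with filterByExpr at a minimum count of 10, scaled by TMM and tested between genotypes with edgeR 4.0.16 (quasi-likelihood F test, two-sided, R 4.3.3) in each assay, and as the interaction of genotype and assay over all 14 libraries. P-values were adjusted over all genes by Benjamini and Hochberg's method, with a threshold of 0.05. DESeq2 1.42.0, other scaling, filters, columns and sets of mice were alternatives. The code was tested on simulated data.

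The 10 members, the other gene lists and the comparisons were chosen with earlier results of these data known. From each vascular, pathway or related list, the 2 called genes with the largest change and a mean of at least 1 CPM are named per comparison, members and their most alike genes apart. The same rule was set for lists of neurons, glia and immediate early genes, which are given by counts or sums instead. A gene that the rule for alike profiles picks is not reported here. Genes named for the order of mice, as examples of a list's calls or as near-copies are exceptions. Mice 1 to 4 were measured in both assays, so their libraries pair by animal. The correlation of their deviations from the genotype mean was 0.0107 in controls and 0.000762 in KO mice. Promoters were cut to the 250 bases before the start, and 7 of 10 members matched by symbol. The 27 gene names turned into dates are not named. Per-length levels were not computed, so values set between genes, as for Cldn5 against the other members, are not adjusted for gene length.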

Additional observations from a re-analysis of the deposited data

Results flagged for a closer look

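Groups of 4 RNA libraries were examined for 1 library far from the others, for each of the 10 genes and for the total count in each genotype. Of 22 such groups 3 passed, where chance gives about 1 in 20, and the genes share their libraries. In KO mice the gap of mouse 5 to the nearest other mouse was 0.895 of the whole range for Flt1, 0.931 for Tek and 0.909 for Ly6c1. For these genes mouse 5 was at 25.7, 12.8 and 8.95 CPM. The lowest of KO mice 2, 4 and 7 was at 42.4, 23.5 and 18.1 CPM. Alas2 in the same mouse was at 47.8 CPM and at 16.3 to 19.5 CPM in the other KO mice.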

How the results depend on the processing

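In RNA, 1001 genes were called. Leaving out each mouse in turn gave 356 to 1763, with the highest count without control mouse 8 and the lowest without KO mouse 4, and 0 members each time. Summing the close libraries gave 36, mice 5 to 8 gave 88, mice 1 to 4 gave 3273 with 1 member, and mice 1, 2, 3, 4 and 7, chosen after seeing the data, gave 4260 with 1 member. Footprint calls were 3102, 1821 with DESeq2 and 1684 in one fit over all libraries, with 0 members there. On plain library sizes the genotypes did not overlap in footprints for 5 members, beside 39.2% of all genes. For footprints relative to RNA, 949 genes were called, 1811 in the paired fit with a replicate block, 579 with close libraries summed, 2540 with 1 member for mice 1, 2, 3, 4 and 7 in RNA, and 419 to 1289 leaving out each mouse. The block called 0 members.

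Members not called changed sign in places, and the cause was not tested. In RNA, Cldn5 was at 0.20 in mice 5 to 8, Slco1a4 at -0.0592 and Abcb1a at -0.16 in mice 1 to 4, and Pecam1 at -0.00925, Slco1a4 at -0.0968 and Abcb1a at -0.15 (adjusted p = 0.077, edgeR) in mice 1, 2, 3, 4 and 7. Leaving out each mouse gave ranges of -0.31 to 0.0282 for Cldn5, -0.0450 to 0.23 for Pecam1, -0.00992 to 0.30 for Tek, -0.0486 to 0.24 for Slco1a4 and -0.13 to 0.19 for Abcb1a. In footprints Cdh5 was at 0.00309 on plain library sizes, and Kdr at -0.0018 with the title prefix as a term and -0.00171 in one fit over all libraries. Leaving out each mouse gave -0.12 to 0.0099 for Cdh5, -0.0707 to 0.0513 for Kdr and -0.00556 to 0.18 for Abcb1a. Relative to RNA, the replicate block gave 0.0166 for Cldn5, 0.0011 for Kdr, 0.12 for Tek and 0.16 for Ly6a. Tek was at 0.00432 with DESeq2, 0.0585 on plain library sizes, 0.0616 with close libraries summed and 0.0645 in mice 1, 2, 3, 4 and 7. Ly6a was at 0.0419 on plain library sizes and 0.20 in those mice. Leaving out each mouse gave -0.12 to 0.22 for Abcb1a, -0.17 to 0.13 for Tek and -0.23 to 0.15 for Ly6a. Footprint depth was low for Ly6c1, Tek, Pecam1 and Ly6a, whose lowest libraries held 35, 46, 50 and 56 reads.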
